A study of Homo sapiens with 20 samples.

Results

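The human mitochondrial genome encodes 22 transfer RNAs, of which 8 are read from the light-strand transcript: those for glutamine (TRNQ), alanine (TRNA), asparagine (TRNN), cysteine (TRNC), tyrosine (TRNY), serine with UCN codons (TRNS1), glutamate (TRNE) and proline (TRNP). They were defined by gene coordinates, and chosen with earlier results of these data known. Together they cover 551 distinct positions of the 16570 that were listed for the mitochondrial chromosome. The other 14 tRNAs, read from the heavy-strand transcript, cover 956. The samples were mitochondrial RNA of K562, a human leukaemia cell line, isolated by cell fractionation and treated with 0.5 M CMC. Control cells were wild type with a non-targeting sgRNA (4 libraries). The others carried an NME6 knockout (NME6 KO, 4 libraries), a knockdown of RPUSD4 (3 libraries), or the NME6 KO together with a cDNA of wild-type NME6 (3 libraries, called rescued below). All 14 libraries are CMC-treated, and the untreated samples of the series, 6 in number, entered only through the scores. Labels do not say whether a line is a clone or whether replicates are separate cultures, so tests measure only the spread between these libraries, which may be technical.

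Mitochondrial tRNAs lie between the protein and rRNA genes and are cut out of long transcripts at both ends. Pseudouridine, an isomer of uridine made by pseudouridine synthases, is among the common modifications of tRNA and is found in the anticodon stem and the T loop of many tRNAs. After alkaline treatment the carbodiimide CMC remains attached to pseudouridine, where it disturbs reverse transcription. RPUSD4 is a mitochondrial pseudouridine synthase known for its sites in the large rRNA and in some heavy-strand tRNAs. NME6 is a nucleoside diphosphate kinase family member found in mitochondria. The comparisons ask whether the signal at tRNA bases differed when RPUSD4 or NME6 was reduced, and whether it differed again when NME6 was put back.

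The genes are unspliced, and their RefSeq positions on chromosome MT of GRCh38 follow. TRNQ lies at 4329 to 4400, between TRNI and TRNM, and shares 3 positions with TRNI. A cluster of 4 follows: TRNA at 5587 to 5655, TRNN at 5657 to 5729, TRNC at 5761 to 5826 and TRNY at 5826 to 5891. TRNC and TRNY share 1 position. TRNS1 lies at 7446 to 7514 beside the COX1 gene, TRNE at 14674 to 14742 between ND6 and CYTB, and TRNP at 15956 to 16023 beside the control region. Since these RNAs run against the coordinates, bases are counted from the high-coordinate end, which is the 5′ end of the RNA. Lengths run from 66 bases in TRNC and TRNY to 73 in TRNN. The deposited values carry no strand, so signal from a light-strand tRNA and from the opposite strand cannot be told apart.

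Each value is a signed score whose unit is not stated. It was taken as the percentage of altered reads after CMC minus that in untreated RNA, and its unit is called points. Sequencing depth is unknown, so a score of exactly 0 cannot be told apart from a position without reads. Replicate 1 of the control and of the NME6 KO stood apart. Over the 551 positions, 97.5% and 98.7% were listed at 0 in these libraries, and values without them are given beside the results that they move. The sources used here do not say whether the rescued libraries were prepared together with the others. NME6 and RPUSD4 are nuclear genes whose levels were not analysed here.

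The light-strand tRNAs were sparsely covered by signal, and most so in the NME6 KO and RPUSD4 knockdown libraries and in control replicate 1. In the control, 97.5%, 54.6%, 54.1% and 55.5% of the 551 positions were listed at 0 in replicates 1 to 4. In the NME6 KO the shares were 98.7%, 85.7%, 89.1% and 90.6%. They were 88.9%, 87.7% and 92.4% in the RPUSD4 knockdown and 73.9%, 63.0% and 60.3% in the rescued cells. Without replicate 1 of both groups, every NME6 KO and knockdown library had more zeros than every control and rescued library. With it, control replicate 1 lay inside the range of the NME6 KO. The mean shares were 65.4% ± 21.4 (SD, n = 4) in the control and 91.0% ± 5.54 (SD, n = 4) in the NME6 KO. They were 89.7% ± 2.44 (SD, n = 3) in the knockdown and 65.7% ± 7.20 (SD, n = 3) in the rescued cells. Leaving out both replicate 1 libraries gave 54.7% ± 0.733 (SD, n = 3) in the control and 88.4% ± 2.52 (SD, n = 3) in the NME6 KO.

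Zeros were also frequent elsewhere on the chromosome. Outside the light-strand tRNAs the share ran from 26.5% to 67.1% over the 14 libraries, and it was lower than inside them in 14 of 14, by 20.6 to 44.4 percentage points (median 37.03). Against the heavy-strand tRNAs the light-strand tRNAs had more zeros in 14 of 14 libraries, by 2.19 to 14.3 percentage points (median 10.03). Leaving out TRNL1 from the heavy-strand tRNAs left this at 2.75 to 15.6 percentage points (median 10.5). These are descriptions with no test, and depth per strand was not tested as their source.

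**Figure D1:**
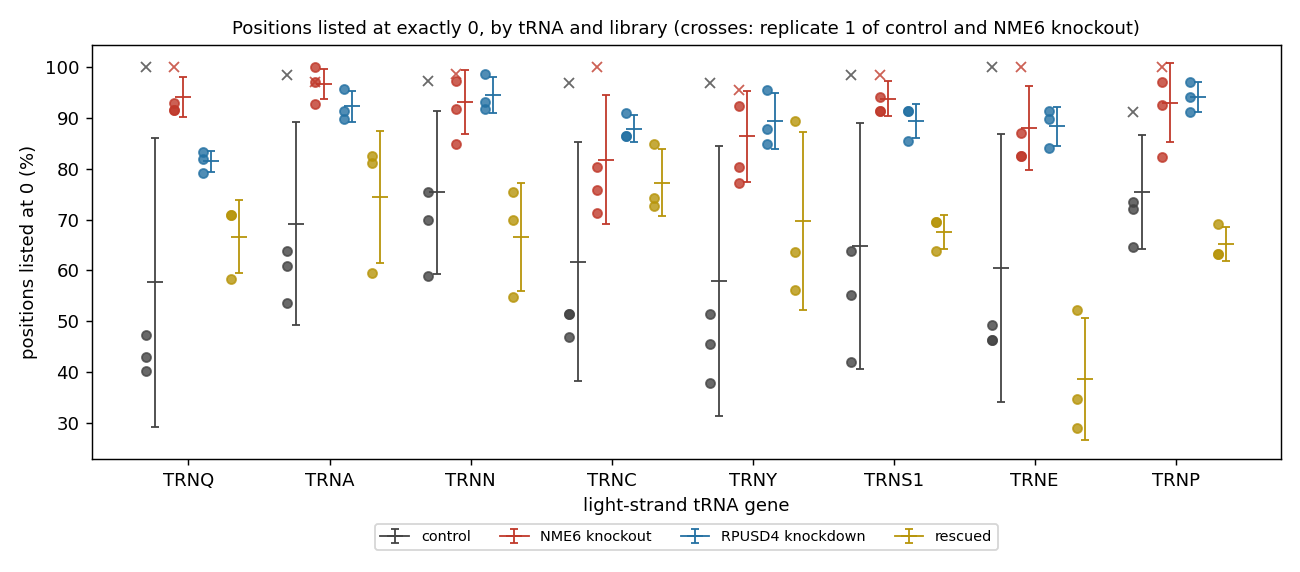
Percentage of positions listed at exactly 0 (y axis) in each light-strand tRNA (x axis); each point is 1 library, coloured by group, crosses are replicate 1 of the control and the NME6 KO, and horizontal bars with whiskers are mean ± SD. Apart from the crosses, control libraries lie between 37.9% and 75.3%, and NME6 KO libraries between 71.2% and 100%.

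By tRNA, control replicates 2 to 4 had the fewest zeros in TRNQ, with a mean of 43.5%, followed by TRNY (44.9%), TRNE (47.3%), TRNC (50%), TRNS1 (53.6%), TRNA (59.4%), TRNN (68.0%) and TRNP (70.1%). In TRNQ the control libraries had 100%, 43.1%, 40.3% and 47.2% zeros in replicates 1 to 4. The NME6 KO libraries had 100%, 93.1%, 91.7% and 91.7% there. Beyond replicate 1, the libraries of both groups were far apart in TRNQ. TRNC was the least sparse tRNA of the NME6 KO, where replicates 2 to 4 had 71.2%, 75.8% and 80.3% zeros and replicate 1 had 100%. The same tRNA had 97.0%, 51.5%, 47.0% and 51.5% in the control. In TRNE the rescued libraries had 52.2%, 29.0% and 34.8%, the lowest group mean of any of the 8 tRNAs at 38.6% ± 12.1 (SD, n = 3). The NME6 KO had 100%, 82.6%, 87.0% and 82.6% there. All rescued libraries thus lay below all NME6 KO libraries in TRNE.

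Counted over tRNAs, the zero shares of groups can be set against all 37 mitochondrial genes. With all libraries, no light-strand tRNA had NME6 KO or knockdown values all above the control, where 5.41% of the 37 genes did in each comparison. Without both replicate 1 libraries, 8 of 8 did in the NME6 KO, where 91.9% of the 37 genes did. They were also 8 of 8 in the RPUSD4 knockdown, where 94.6% of the genes did. The rescued libraries all lay below the NME6 KO in 6 of 8 (TRNQ, TRNA, TRNN, TRNS1, TRNE and TRNP), where 83.8% of the genes did. TRNC and TRNY were the other two. Rescued and control values separated in none of the 8 with all libraries, where 29.7% of the genes were lower in the rescued cells. Without control replicate 1 the rescued libraries lay above the control in TRNQ, TRNC and TRNY, where 16.2% of the genes did, and lay below it in 0 of 8, where 32.4% of the genes did. In the comparisons with the NME6 KO and the knockdown the counts of the 8 tRNAs were near the shares over all genes. In the rescued cells against the control they were not, and this difference was not tested. Of the 14 heavy-strand tRNAs, 3 lay above the control and 2 below it without control replicate 1. With all libraries 1 of the 14 lay below it. The low counts below the control were thus not particular to the light-strand tRNAs.

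Positions with a score other than 0 were counted in each library. Control replicates 2 to 4 had 250, 253 and 245 positions with a score, whose medians were 0.239, 0.228 and 0.222 points. NME6 KO replicates 2 to 4 had 79, 60 and 52 positions, with medians of 0.673, 0.859 and 0.955 points. The NME6 KO libraries thus held fewer scores than the control, of higher median. Replicate 1 of the control had 14 such positions with a median of 1.48 points, and replicate 1 of the NME6 KO had 7 with a median of 4.76 points. The knockdown libraries had 61, 68 and 42 positions with medians of 0.378, 0.349 and 0.340 points. The rescued libraries had 144, 204 and 219 with medians of 0.287, 0.211 and 0.147 points. The order of the medians did not follow the order of the counts, since rescued replicates 2 and 3 had fewer scores than control replicates 2 to 4 and lower medians. Depth was not tested as the source of this pattern.

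The mean score over all bases of the 8 tRNAs, zeros included, overlapped between all groups when all libraries were kept. The control libraries gave 0.042, 0.153, 0.181 and 0.158 points, and the NME6 KO libraries 0.070, 0.132, 0.146 and 0.155 points. The knockdown libraries gave 0.113, 0.158 and 0.054 points, and the rescued libraries 0.129, 0.116 and 0.087 points. The group means, in the same order, were 0.134 ± 0.062 (SD, n = 4), 0.126 ± 0.038 (SD, n = 4), 0.108 ± 0.052 (SD, n = 3) and 0.111 ± 0.022 (SD, n = 3) points. Without both replicate 1 libraries they were 0.164 ± 0.015 (SD, n = 3) in the control and 0.144 ± 0.012 (SD, n = 3) in the NME6 KO, and all rescued libraries then lay below both groups. The heavy-strand tRNAs had a higher mean score in 13 of 14 libraries (12 of 14 without TRNL1), again as a description.

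**Figure D2:**
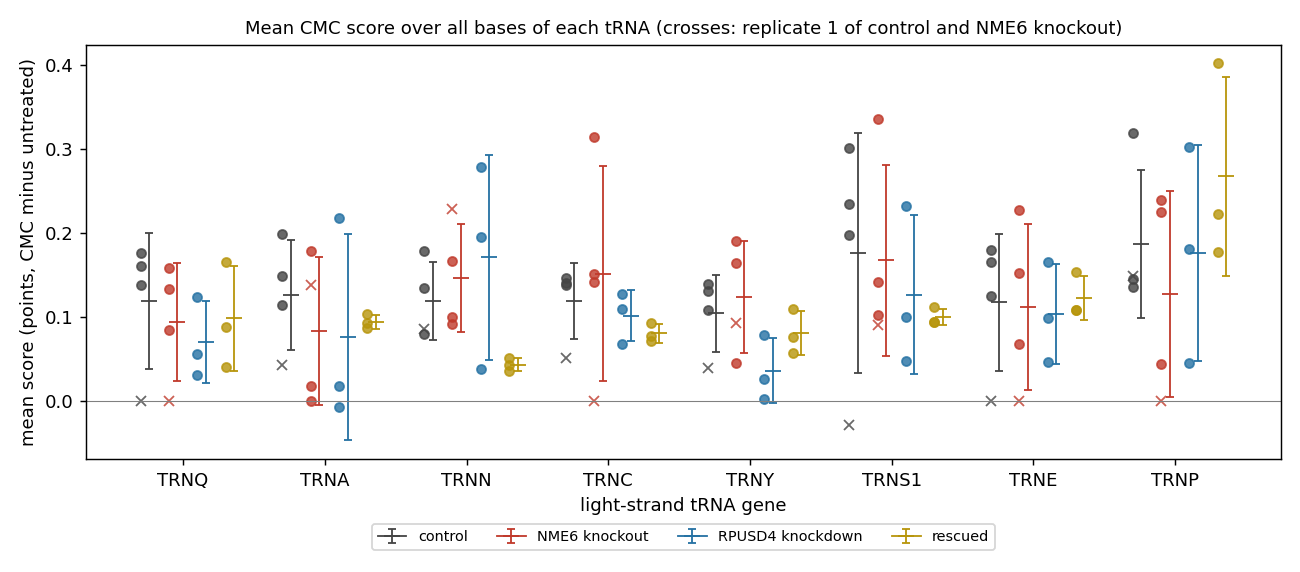
Mean score in points over all bases of each light-strand tRNA (x axis: tRNA; y axis: CMC minus untreated); points are libraries, crosses are replicate 1 of the control and the NME6 KO, and horizontal bars with whiskers are mean ± SD. The rescued libraries of TRNN sit at 0.0363 to 0.0516 points, below every library of the control and the NME6 KO, and those of TRNP at 0.178 to 0.402 points.

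In a fit of gene means over all 37 mitochondrial genes with limma, 0 of 8 light-strand tRNAs passed an adjusted p of 0.05 in the RPUSD4 knockdown, the NME6 KO or the rescued cells against the control, or in the rescued cells against the NME6 KO. None of the 37 genes passed either (0% in each comparison). At an unadjusted p under 0.05, the counts were 0, 0, 0 and 1 of 8, the last being TRNN. In the asparagine tRNA, TRNN, the rescued libraries had mean scores of 0.0425, 0.0516 and 0.0363 points. The NME6 KO libraries had 0.228, 0.166, 0.0912 and 0.101 points, and the control libraries 0.0856, 0.134, 0.0798 and 0.179 points. The rescued libraries were below all libraries of both groups. The difference from the NME6 KO was -0.103 points (SE 0.0478, limma adjusted p = 0.289), and that from the control was -0.0761 points (SE 0.0478, limma adjusted p = 0.602). Of 37 genes, 16.2% had rescued mean scores all below the NME6 KO and 10.8% all below the control.

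The proline tRNA, TRNP, went the other way. Its rescued libraries had mean scores of 0.402, 0.223 and 0.178 points. The control libraries had 0.149, 0.145, 0.319 and 0.135 points, and the NME6 KO libraries 0, 0.240, 0.225 and 0.0444 points. The groups overlapped. The rescued cells differed from the NME6 KO by 0.140 points (SE 0.0774, limma adjusted p = 0.383), the largest positive difference among the 8 tRNAs, and by 0.0977 points without both replicate 1 libraries. The sign of this difference turned when zeros were left out (-1.18 points, limma adjusted p = 0.204). In the RPUSD4 knockdown, TRNP libraries had 0.181, 0.302 and 0.0455 points.

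In the tyrosine tRNA, TRNY, the knockdown libraries had mean scores of 0.0268, 0.0785 and 0.00255 points. The control libraries had 0.0391, 0.131, 0.140 and 0.108 points. Only control replicate 1 fell among the knockdown values. Without it the groups separated. The difference was -0.0686 points (SE 0.0367, limma adjusted p = 0.974), the largest negative difference of the knockdown among the 8 tRNAs. Against the control, 7 of 8 tRNAs had a lower mean in the knockdown (median difference -0.0331 points, against -0.00483 over all 37 genes). The cysteine tRNA, TRNC, had the largest positive difference of the NME6 KO from the control, 0.0326 points (SE 0.0477), from libraries at 0, 0.151, 0.142 and 0.314 points against 0.0514, 0.141, 0.146 and 0.138. The difference was 0.0607 points without both replicate 1 libraries, and its sign turned when NME6 KO replicate 4 was left out (-0.0214 points).

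The calls on gene means changed when zeros were left out, that is, when a tRNA was described by the size of its scores alone. In the NME6 KO against the control, 2 of 8 tRNAs were then higher, TRNQ by 1.29 points (limma adjusted p = 0.00201) and TRNS1 by 3.51 points (limma adjusted p = 0.00661), where 38.9% of 36 genes passed. In the rescued cells against the NME6 KO the same 2 were lower, with differences of -1.27 points in TRNQ (limma adjusted p = 8.31e-04) and -3.12 points in TRNS1 (limma adjusted p = 0.0141), where 44.4% of genes passed. In TRNS1 these means include replicate 1 of both groups, at a single position in each. Without both replicate 1 libraries the TRNS1 differences were 1.95 points (limma adjusted p = 0.0230) and -2.18 points (limma adjusted p = 0.00870), and those of TRNQ were 1.29 and -1.27 points. The count of tRNAs called was then 4 of 8 in the NME6 KO against the control (TRNQ, TRNC, TRNY and TRNS1), where 52.8% of genes passed. It was 4 of 8 in the rescued cells against the NME6 KO (TRNQ, TRNN, TRNY and TRNS1), where 75.0% of genes passed. It was 1 of 8 in the knockdown (TRNN), where 27.8% passed, and 0 of 8 in the rescued cells against the control, where 36.1% passed. With replicate 1 kept, the knockdown and the rescued cells against the control had 0 of 8, where 27.8% and 24.3% passed. Libraries with no score in a tRNA drop out of these means, such as replicate 1 of the control and of the NME6 KO in TRNQ. The remaining libraries are averaged over different bases. In TRNQ, NME6 KO replicates 2 to 4 had 91.7% to 93.1% of bases at 0, against 40.3% to 47.2% in control replicates 2 to 4. The NME6 KO mean of TRNQ thus rests on few bases, and the part of this in the calls was not tested. Without both replicate 1 libraries and with zeros kept, TRNC passed in the rescued cells against the NME6 KO (-0.122 points, limma adjusted p = 0.0348), where 32.4% of genes passed. The other 3 comparisons then had 0 of 8, where 0% (knockdown), 0% (NME6 KO) and 37.8% (rescued cells against the control) of genes passed.

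The glutamine, alanine, serine and glutamate tRNAs had overlapping groups in mean score with all libraries. Without control replicate 1, knockdown means lay all below the control in 3 of 8 tRNAs (TRNQ, TRNC and TRNY), where 27.0% of the 37 genes did. Rescued means then lay all below the control in 4 of 8 (TRNA, TRNN, TRNC and TRNS1), where 56.8% of the genes did. They lay all below the NME6 KO without its replicate 1 in 2 of 8 (TRNN and TRNC), where 48.6% of the genes did. In TRNQ the group means were 0.119 ± 0.0807 (SD, n = 4) in the control, 0.0941 ± 0.0700 (SD, n = 4) in the NME6 KO, 0.0702 ± 0.0486 (SD, n = 3) in the knockdown and 0.0983 ± 0.0629 (SD, n = 3) in the rescued cells. In TRNA the corresponding means ran from 0.0763 to 0.126 points, in TRNS1 from 0.100 to 0.176 and in TRNE from 0.104 to 0.123. TRNS1 was the tRNA with a negative library, control replicate 1 at -0.0279 points, beside knockdown replicate 3 in TRNA at -0.00681 points.

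**Figure D3:**
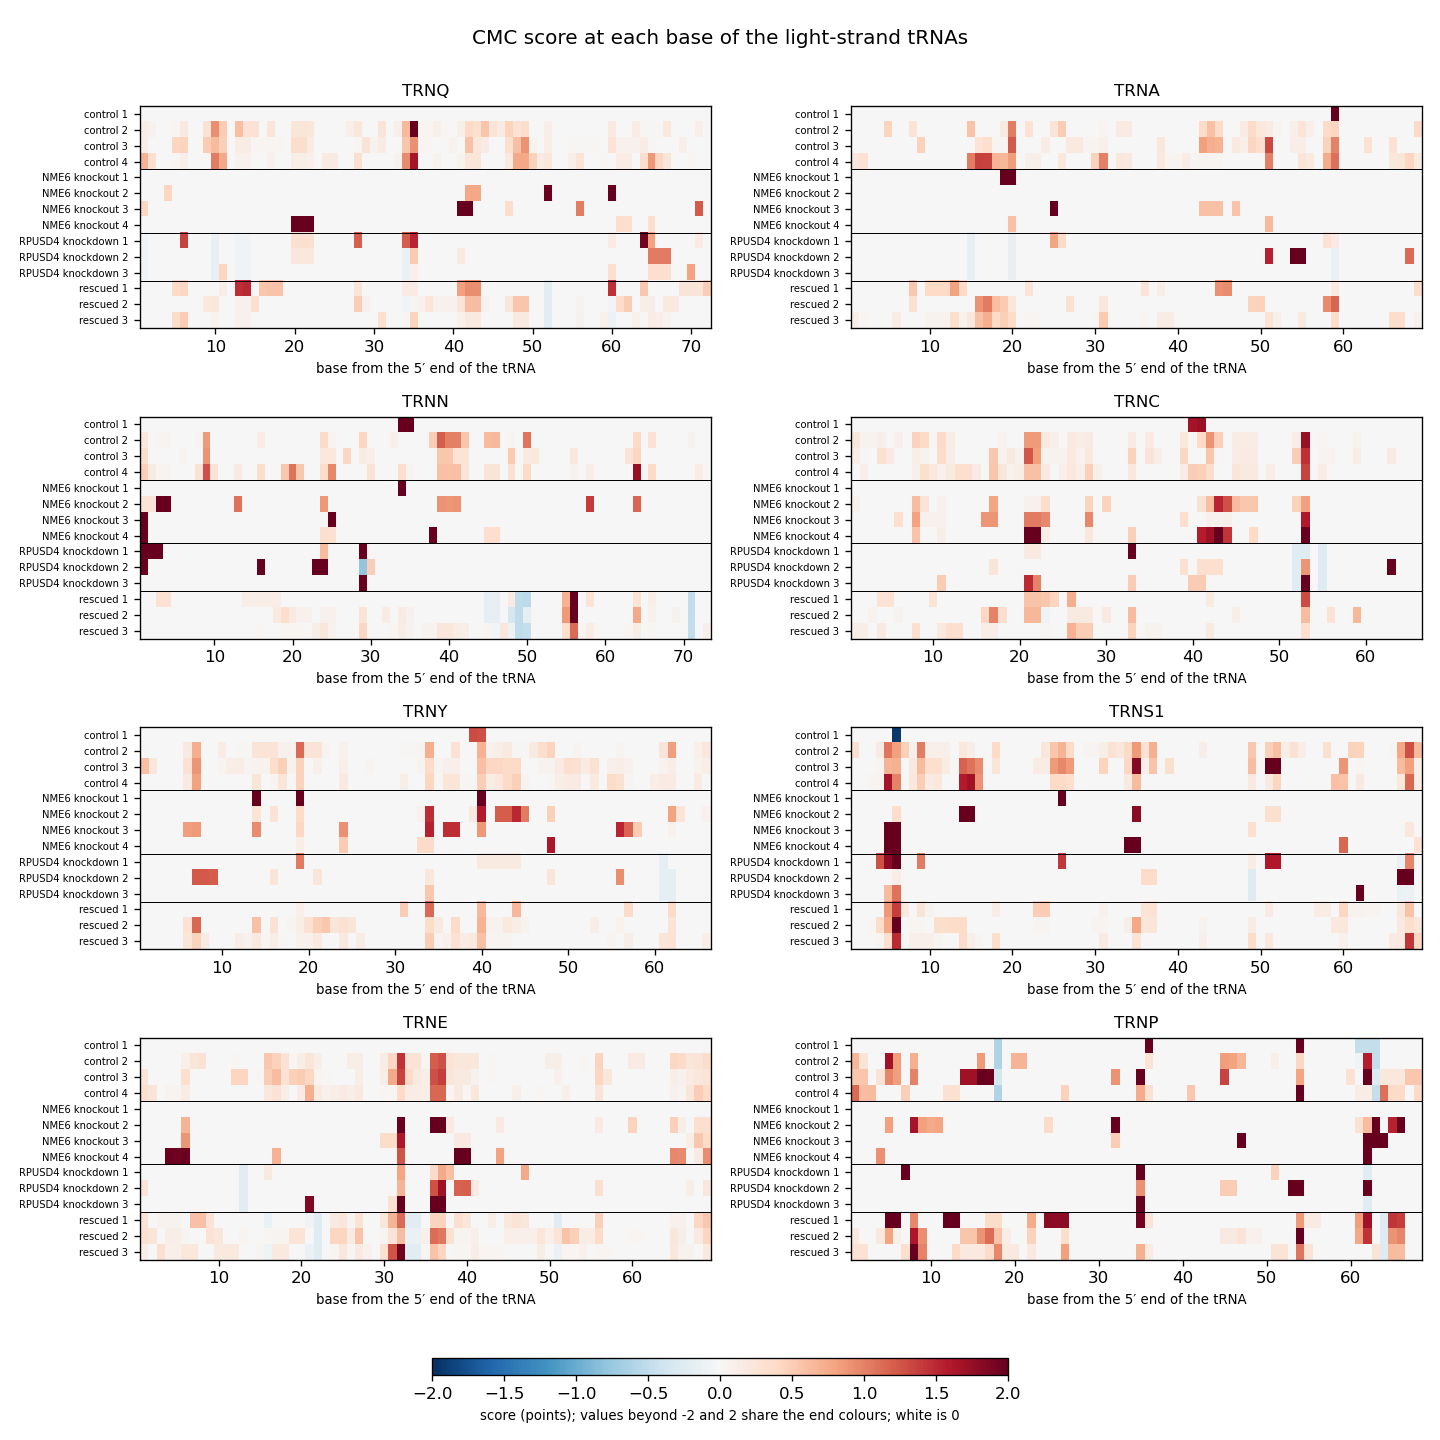
Score in points (colour, from -2 to 2, with values beyond sharing the end colours) at each base counted from the 5′ end (x axis) in each of the 14 libraries (rows, by group), for each light-strand tRNA. Control replicates 2 to 4 and the rescued libraries hold many low scores, and the NME6 KO and knockdown libraries hold fewer, among them single bases of high score.

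At single bases, signal recurred at few places. Of the 551 positions, 116 were at 0 in all 14 libraries, 277 carried a score in 1 to 4 libraries and 17 carried one in 10 or more. The median position carried a score in 2 libraries. All of control replicates 2 to 4 carried a score at 137 positions, all rescued libraries at 67, all knockdown libraries at 26 and NME6 KO replicates 2 to 4 at 19. A mean of 1 point or more over the 14 libraries, the level needed for the test, was reached at 9 positions (1.63% of 551, against 0.899% of all listed positions). They were bases 5 and 6 of TRNS1, bases 1 and 34 of TRNN, bases 35, 54 and 62 of TRNP, base 32 of TRNE and base 53 of TRNC. Base 35 of TRNP was just inside that level at 1.04 points, and bases 37 and 36 of TRNE were just outside it at 0.959 and 0.866 points. TRNQ, TRNA and TRNY had no tested position. A position that reached the level through a single group had to differ there, so the count of 9 is no evidence of a difference.

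The highest mean was at base 6 of TRNS1, the serine tRNA (position 7509, in the first bases of the RNA), at 1.86 points over 14 libraries, with a score in 13 of them. The control libraries had -1.92, 0.813, 0.706 and 0.986 points, and the NME6 KO libraries 0, 0.346, 5 and 7.66 points. The knockdown libraries had 6.28, 0.137 and 1.09 points, and the rescued libraries 1.39, 2.02 and 1.49 points. Each rescued library lay above all control libraries, and the other groups overlapped with the control. The rescued cells differed from the control by 1.49 points (SE 1.91, limma adjusted p = 0.912). An exact two-sided permutation test gave p = 0.0571, the smallest that 3 against 4 libraries allow, and 0.370 after adjustment over 149 positions. Of the 149, 7.38% had rescued values all above the control. Without control replicate 1 the control mean was 0.835 points in place of 0.146, and the difference 0.798 points in place of 1.49.

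Base 5 of TRNS1 (position 7510) had 0, 1.06, 0.673 and 1.65 points in the control and 0, 0, 4.23 and 3.83 points in the NME6 KO. It had 1.79, 0 and 0.637 points in the knockdown and 0.870, 0.779 and 0.331 points in the rescued cells. High values fell in the same NME6 KO libraries, replicates 3 and 4, as at base 6. Over the 14 libraries the scores of these neighbouring bases had a Pearson r of 0.843. Outside TRNS1 the positions most like base 6 among 147 tested were 3854 in ND1 (r = 0.726) and the neighbours 1665 and 1666 in TRNV (r = 0.684 and 0.676), as a description. All positions of a library come from the same sequencing run of that library, whose depth is unknown.

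**Figure D4:**
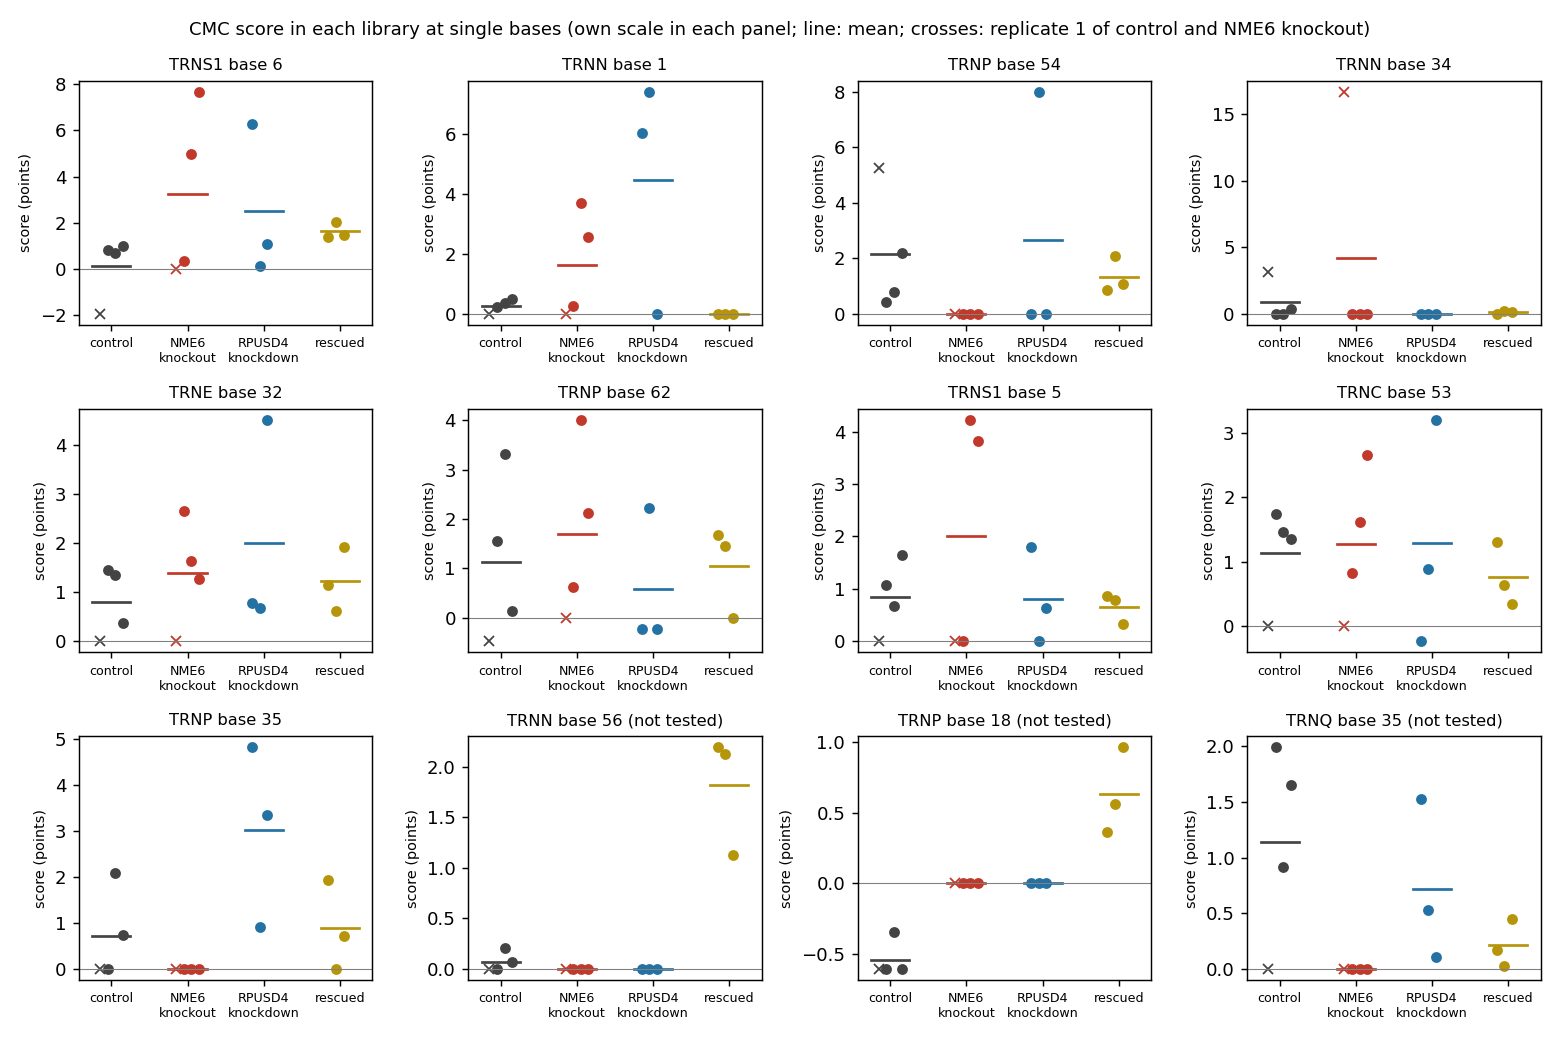
Score in points (y axis, on its own scale in each panel) at single bases of the light-strand tRNAs in the 4 groups (x axis); each point is 1 library, the line is the group mean and crosses are replicate 1 of the control and the NME6 KO. Base 54 of TRNP lies at 0 in the 4 NME6 KO libraries and above 0 in the 4 control libraries; bases marked as not tested lay below the level filter.

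Base 32 of the glutamate tRNA and base 53 of the cysteine tRNA each carried a score in 12 of 14 libraries. Base 32 of TRNE (position 14711) had 0, 1.45, 1.35 and 0.375 points in the control and 0, 2.64, 1.62 and 1.26 points in the NME6 KO. It had 0.781, 0.673 and 4.50 points in the knockdown and 1.14, 0.615 and 1.92 points in the rescued cells. It carried a score in every library but both of replicate 1, and all groups overlapped. Base 53 of TRNC (position 5774) had 0, 1.73, 1.47 and 1.35 points in the control and 0, 0.815, 1.61 and 2.65 points in the NME6 KO. It had -0.239, 0.881 and 3.21 points in the knockdown and 1.30, 0.628 and 0.344 points in the rescued cells. These groups overlapped too.

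In the proline tRNA, base 54 (position 15970) had 5.26, 0.412, 0.784 and 2.19 points in the control. It was listed at 0 in all 4 NME6 KO libraries. The knockdown libraries had 0, 8 and 0 points, and the rescued libraries 0.849, 2.08 and 1.07 points. Control and rescued libraries thus lay above every NME6 KO library. The NME6 KO differed from the control by -2.16 points (SE 1.61, limma adjusted p = 0.768), and by -1.13 points (limma adjusted p = 0.934) without control replicate 1, the library at 5.26. Adjusted p ran from 0.613 to 0.986 over its alternatives. This base was also the highest control base of TRNP. An exact two-sided permutation test gave p = 0.0286, the smallest that 4 against 4 libraries allow, and 0.710 after adjustment over 149 positions. In the rescued cells against the NME6 KO the exact p was 0.0571, again the smallest possible, and 0.294 after adjustment. Of the 149 positions, 0.671% had NME6 KO values all below the control, and 8.05% had rescued values all above the NME6 KO. The zero share of TRNP in the NME6 KO was 93.0% ± 7.72 (SD, n = 4), and its part in these values was not tested.

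The other tested bases of TRNP varied more. Base 35 (position 15989) had 4.81, 0.909 and 3.33 points in the knockdown. It had 0, 0, 2.08 and 0.742 points in the control, was 0 in all NME6 KO libraries, and had 1.92, 0 and 0.707 points in the rescued cells. Knockdown and control overlapped. Knockdown exceeded control by 2.31 points (SE 0.809, 95% interval 0.539 to 4.09), with a limma adjusted p of 0.322. It passed the threshold when knockdown replicate 2 was left out (3.37 points, limma adjusted p = 0.0355, where 1.34% of the 149 positions passed). Adjusted p ran from 0.0355 to 0.574 over its alternatives. Outside the knockdown the mean of this base was 0.496 points, under the tested level. It was tested only because it was high in the knockdown, so these p-values give no support to a difference. Base 62 (position 15962) had group means of 1.14 ± 1.69 (SD, n = 4) points in the control, 1.69 ± 1.79 (SD, n = 4) in the NME6 KO, 0.587 ± 1.43 (SD, n = 3) in the knockdown and 1.04 ± 0.911 (SD, n = 3) in the rescued cells.

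In the asparagine tRNA, base 1 (position 5729, the 5′ end of the RNA) had 6.02, 7.39 and 0 points in the knockdown. The control had 0, 0.211, 0.347 and 0.472 points, and the NME6 KO had 0, 0.261, 3.70 and 2.56 points. All rescued libraries were at 0. Of the knockdown libraries, replicates 1 and 2 were above every control library and replicate 3 was not. Knockdown exceeded control by 4.21 points (SE 1.47, 95% interval 0.999 to 7.43), with a limma adjusted p of 0.322, the largest difference of the knockdown among the 9 positions. Without knockdown replicate 3 it was 6.45 points (limma adjusted p = 0.00436, where 0.671% of the 149 positions passed). Adjusted p ran from 0.00436 to 0.686 over its alternatives. The mean of this base outside the knockdown was 0.686 points, so it too was tested only through the knockdown, and leaving out the library at 0 adds to that choice. These p-values give no support to a difference.

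Base 34 of TRNN (position 5696) rested on the libraries that stood apart. It had 3.12, 0, 0 and 0.352 points in the control and 16.7, 0, 0 and 0 points in the NME6 KO. It was 0 in all knockdown libraries and 0, 0.171 and 0.111 points in the rescued cells. Without replicate 1 the control mean was 0.117 points and the NME6 KO mean 0. The difference of the NME6 KO from the control was 3.30 points (SE 3.09, limma adjusted p = 0.809) with these libraries and -0.117 points without them. The rescued cells differed from the NME6 KO by -4.07 points (SE 3.33, limma adjusted p = 0.610) with them and by 0.0943 points without. Outside the NME6 KO the mean of this base was 0.376 points, so it was tested only through that group.

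Across the 4 comparisons, limma called 0 of the 9 tested bases at an adjusted p of 0.05. Over the 149 tested positions the share called was 0.671% for the RPUSD4 knockdown against the control, 0% for the NME6 KO against the control, 3.36% for the rescued cells against the NME6 KO and 2.68% for the rescued cells against the control. At an unadjusted p under 0.05 the counts among the 9 were 2, 0, 0 and 0, the former being base 1 of TRNN and base 35 of TRNP. In the knockdown 6 of 9 differences were above 0, with a median of 0.504 points against 0.126 over all 149. In the NME6 KO 7 of 9 were above 0, with a median of 0.587 points against 0.131. The rescued cells were lower than the NME6 KO at 7 of 9, with a median of -0.643 points against -0.403. They were lower than the control at 6 of 9, with a median of -0.188 points against -0.153. Base 34 of TRNN, base 5 of TRNS1 and base 62 of TRNP were tested only through the NME6 KO. Their means outside it were 0.376, 0.780 and 0.944 points, under the tested level. Base 1 of TRNN and base 35 of TRNP were tested only through the knockdown. Counts and medians that involve these groups were therefore partly set by the level filter and give no support to a difference. Without both replicate 1 libraries limma again called 0 of the 9, where 4.70%, 0%, 14.8% and 8.05% of the 149 positions passed in the same order. In that fit 1, 0, 0 and 0 of the 9 had an unadjusted p under 0.05. These comparisons share the control and NME6 KO libraries.

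With no level filter, 435 light-strand tRNA positions entered the fit of 14928. Of the 435, limma called 1 in the knockdown against the control, where 0.241% of all positions passed. It called 1 in the NME6 KO against the control, where 0.482% passed. It called 9 in the rescued cells against the NME6 KO, where 1.05% passed, and 10 in the rescued cells against the control, where 0.690% passed. These bases had means below the tested level of 1 point over the 14 libraries, but not always low scores within a group. Base 56 of TRNN was 1.82 points higher in the rescued cells than in the NME6 KO. At several of the called bases all libraries of a group share a value.

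Below the tested level, the highest control base of TRNQ was base 35 (position 4366), which had 0, 1.99, 0.911 and 1.66 points in the control. It was 0 in all NME6 KO libraries, 1.53, 0.529 and 0.103 points in the knockdown and 0.164, 0.0239 and 0.451 points in the rescued cells. Control replicates 2 to 4 lay above every rescued library. In TRNA, base 59 (position 5597) had 2.97, 0.436, 0.986 and 1.11 points in the control and 0 in all NME6 KO libraries. The rescued libraries had 0.192, 1.17 and 0.363 points there, and the knockdown libraries 0.158, -0.130 and -0.130 points. All NME6 KO and knockdown libraries were below all control libraries at this alanine tRNA base. In TRNY, base 40 (position 5852) had 1.28, 0.700, 0.598 and 0.497 points in the control and 2.04, 1.59, 0.872 and 0 points in the NME6 KO. The rescued libraries had 0.642, 0.692 and 0.593 points, and the knockdown libraries 0.184, 0 and 0 points. All 3 knockdown libraries of this tyrosine tRNA base were below all control libraries. None of these 3 bases was tested in the fit, and each was chosen as the highest of the control, which favours lower values elsewhere. At the highest control base chosen alike in each gene, the knockdown was all below the control in 2 of 8 tRNAs (TRNA and TRNY), where 18.9% of the 37 genes were. The NME6 KO was in 2 of 8 (TRNA and TRNP), where 13.5% were.

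By place within the tRNA, a window around the anticodon arm (bases 24 to 42 from the 5′ end, 152 positions) had mean scores of 0.158 ± 0.024 points (SD, n = 4) in the control and 0.170 ± 0.021 (SD, n = 4) in the NME6 KO. It had 0.116 ± 0.034 (SD, n = 3) in the knockdown and 0.106 ± 0.017 (SD, n = 3) in the rescued cells. A window around the T loop (88 positions) had 0.112 ± 0.043 (SD, n = 4) in the control and 0.0758 ± 0.063 (SD, n = 4) in the NME6 KO. It had 0.150 ± 0.187 (SD, n = 3) in the knockdown and 0.089 ± 0.029 (SD, n = 3) in the rescued cells. Outside both windows the means were 0.128 in the control, 0.118 in the NME6 KO, 0.0925 in the knockdown and 0.119 in the rescued cells. Without both replicate 1 libraries, the control had 0.169 in the anticodon-arm window, 0.129 in the T-loop window and 0.172 outside both. The NME6 KO then had 0.172, 0.101 and 0.143 in the same order. The windows were set by base number, without sequence, so they do not mark uridines. The 9 tested positions were spread evenly, with 3 in each of the first, middle and last parts of equal length.

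Negative scores, where on this reading the untreated value exceeded the CMC value, were few and repeated within groups. They occurred at 5 positions in the control, 0 in the NME6 KO, 19 in the knockdown and 17 in the rescued cells. In the knockdown 10 of the 19 had the same value in all 3 libraries (equal within 1e-09), and in the rescued cells 5 of the 17 did. By tRNA, the knockdown had the most in TRNQ (5), and the rescued cells in TRNE and TRNN (6 each). The lowest values were -1.92 points at base 6 of TRNS1 in the control, -0.796 at base 29 of TRNN in the knockdown and -0.517 at base 50 of TRNN in the rescued cells. Libraries with identical negative values do not give independent differences at those bases. Which untreated sample was subtracted from each library is not stated. The series holds 1 untreated sample each for the knockdown and the rescued cells, and 2 each for the control and the NME6 KO. If untreated RNA of the same group was used, the 3 knockdown libraries shared 1 sample, and so did the 3 rescued libraries. Where libraries of a group share an untreated sample, their scores are not independent at any base, and the p-values do not allow for this. Such sharing was not tested.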

How the data were processed

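For each CMC library the authors deposited a signed score at every mitochondrial position, headed delta in those files and read as CMC minus untreated, without unit, depth, base or strand. Positions 2 to 16571 were taken as GRCh38 coordinates, and genes came from RefSeq (GRCh38.p14). Trimmomatic, STAR and SAMtools are named, unversioned, in the submitters' processing notes, and the calling of altered reads is not given in the sources. Groups came from the labels. Scores entered limma 3.58.1 (R 4.3.3) unscaled (empirical Bayes with trend, all 14 libraries, two-sided), at 149 positions of mean 1 or more and, separately, on means of 37 genes. P-values were adjusted by Benjamini-Hochberg over all 149 or 37. Exact permutation tests (numpy 2.4.6, every split of the libraries between the groups) were adjusted over the 149 positions, not over named positions as first planned. The limma script was tested on simulated normal scores. They lack the many exact zeros of these data and any sharing of untreated samples, so that test does not cover these features. Alternatives changed the level filter, zeros, scale, trend, samples and replicate block. Deviations of same-numbered control and NME6 KO libraries had r = 0.471, 0.286, 0.193 and 0.116. The highest r with another number was -0.340, 0.246, 0.159 and 0.121. Whether the numbers pair those samples is thus not settled, and the main fits used no pairing. In the other comparisons no same-numbered libraries had the highest r. Tested positions, those past the threshold, the highest control base of each tRNA and the 3 largest differences per comparison were named. The members and lists were chosen with earlier results of these data known.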

Additional observations from a re-analysis of the deposited data

Results flagged for a closer look

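In 9 of 50 groups of 4 libraries examined, 1 library lay far from the others of its group by Dixon's criterion. For normal values chance gives about 5% of groups. These groups hold many zeros and reuse the same libraries, so the count cannot be set against that rate. In the control, replicate 1 lay apart in the zero share of TRNQ (100% against 40.3% to 47.2%), of TRNC (97.0% against 47.0% to 51.5%) and of TRNE (100% against 46.4% to 49.3%). The same library lay apart in the mean score of TRNC (0.0514 points against 0.138 to 0.146), at base 34 of TRNN (3.12 points against 0 to 0.352) and at base 6 of TRNS1 (-1.92 points against 0.706 to 0.986). Control replicate 3 lay apart in the mean score of TRNP, at 0.319 points against 0.135 to 0.149. In the NME6 KO, replicate 1 lay apart in the zero share of TRNQ (100% against 91.7% to 93.1%) and at base 34 of TRNN (16.7 points against 0). So 8 of the 9 came from replicate 1 libraries.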

How the results depend on the processing

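In most alternatives no light-strand tRNA or base was called. With no level filter (14928 positions), limma called 1 base in the RPUSD4 knockdown against the control, 1 in the NME6 KO against the control, 9 in the rescued cells against the NME6 KO and 10 against the control, where 0.241%, 0.482%, 1.05% and 0.690% of positions were called. Leaving out 1 replicate at a time gave 0 to 1 tested bases in the knockdown and 0 to 0 in the other comparisons. With zeros left out of gene means, 2 tRNAs were called in the NME6 KO against the control (TRNQ by 1.29 points and TRNS1 by 3.51) and 2 in the rescued cells against the NME6 KO (TRNQ by -1.27 and TRNS1 by -3.12), where 38.9% and 44.4% of genes were called; the TRNP differences became 1.07, -1.18 and, for rescued cells against the control, -0.110. With zeros and both replicate 1 libraries left out, an alternative chosen after seeing the data, the calls were 1 in the knockdown, 4 in the NME6 KO and 4 in the rescued cells against the NME6 KO; differences that turned were 0.0356 for TRNY in the knockdown, 1.33 for TRNP in the NME6 KO and -1.18 for TRNP in the rescued cells against the NME6 KO. Without both replicate 1 libraries, 1 tRNA was called in the rescued cells against the NME6 KO (TRNC, -0.122 points, limma adjusted p = 0.0348), and differences at base 34 of TRNN (-0.117 for the NME6 KO against the control, 0.0943 for the rescued cells against the NME6 KO) and base 54 of TRNP (0.202, rescued cells against the control) turned. Without gene ends the TRNN difference of the knockdown was -0.0303. Over single replicates left out, the ranges that crossed 0 were -0.00246 to 0.117 for that difference, -0.0214 to 0.0832 for TRNC in the NME6 KO, -0.869 to 4.69 and -5.46 to 0.0943 for base 34 of TRNN in the 2 comparisons above, and -1.41 to 0.202 for base 54 of TRNP. With the replicate block 0 bases and 0 tRNAs were called in each comparison. Depth is unknown and limits every zero.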

Other observations

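Bases chosen after their values were seen lay below the tested level of 1 point and were called in the fit without a level filter. At base 56 of TRNN (position 5674) the rescued libraries had 2.19, 2.13 and 1.13 points, and the control libraries 0, 0, 0.207 and 0.0693 points. All NME6 KO and knockdown libraries were at 0. The rescued libraries were above all others, by 1.75 points against the control. Its neighbour, base 55, had 0.688, 0.852 and 0.338 points in the rescued cells and 0 in the other 11 libraries. At base 18 of TRNP (position 16006) the control libraries had -0.606, -0.606, -0.347 and -0.606 points, and the rescued libraries 0.361, 0.566 and 0.965 points. Bases 49 and 71 of TRNN had -0.513 and -0.499 points in all 3 rescued libraries, base 22 of TRNE had -0.241 points in all 3, and base 55 of TRNC had -0.262 points in all 3 knockdown libraries. At such bases, and at bases 55 and 56 of TRNN, at least 1 group has no spread, so their adjusted p is not given. Single libraries also held high scores that no other library of their group approached: 9.94 points at base 25 of TRNA in NME6 KO replicate 3, and 8.40 points at base 53 of TRNP in knockdown replicate 2.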
